A study of Mus musculus with 6 samples.

Results

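The 10 genes described here are markers of the stem cells of the mouse small intestine: Lgr5, Olfm4, Ascl2, Smoc2, Slc12a2, Clca3b, Aqp4, Lrig1, Tnfrsf19 and Prom1. They were taken from a fixed list of symbols, matched to the Ensembl identifiers of the count table. All 10 of 10 were found among its 28564 genes, and all 10 were among the 15122 genes that passed the filter on low counts. RNA sequencing was done on crypt epithelial cells of 3 Apln-/- and 3 wild-type control (C57Bl/6) samples, all from male mice aged 13 weeks. Apln encodes apelin, a secreted peptide hormone. Small intestines of both genotypes were digested with Liberase TL, and single live cells were sorted that carried EpCAM and CD44 and lacked CD31 and CD45. The labels name no Cre driver for the deletion and do not give the strain of the Apln-/- mice, the deleted part of the gene or whether controls were littermates.

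The stem cells of the small intestine are slender cells at the crypt base, lodged between Paneth cells, and are called crypt base columnar cells. They divide to renew themselves and to feed the zone of rapidly dividing progenitors above them, whose progeny become enterocytes, goblet cells, enteroendocrine cells and tuft cells. Wnt signals, amplified through Lgr5 and its R-spondin ligands, and Notch signals received from neighbouring Paneth cells keep them in that state. Several of the markers described here are direct targets of these pathways: Lgr5, Ascl2 and Tnfrsf19 of Wnt signalling, and Olfm4 of Notch signalling.

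None of the 10 stem cell markers differed between Apln-/- and wild-type crypt cells past the threshold. Lgr5 itself averaged 33.0 ± 6.64 CPM (a gene's counts relative to the TMM-scaled library size) in Apln-/- and 33.0 ± 6.06 CPM in wild-type libraries (SD, n = 3 each). The log2 fold change, Apln-/- over wild type, was positive for 6 markers and negative for 4, with a median of 0.22 against -0.01 over all genes tested; 50.5% of all genes tested were below 0. With edgeR's quasi-likelihood test and Benjamini-Hochberg adjustment over all genes, 0 of 10 markers passed an adjusted p of 0.05, where 0.172% of all genes did. At an unadjusted p under 0.05, 0 of 10 markers passed, against 15.2% of all genes in either direction. The DESeq2 Wald test also called 0 of 10 markers, against 5.73% of the genes to which it gave an adjusted p. The values of the Apln-/- and wild-type libraries overlapped for all 10 markers; among all genes, 11.3% did not overlap and were higher in Apln-/-, and 9.56% did not overlap and were lower. The 95% intervals, read as folds, ran from 0.703 at the lowest (Lrig1) to 2.30 at the highest (Ascl2). With 3 samples a group, a true difference inside a gene's own interval is therefore not excluded. In bulk RNA, fewer cells of a type and less RNA per cell cannot be told apart, so a marker's level stands for neither alone.

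**Figure D1:**
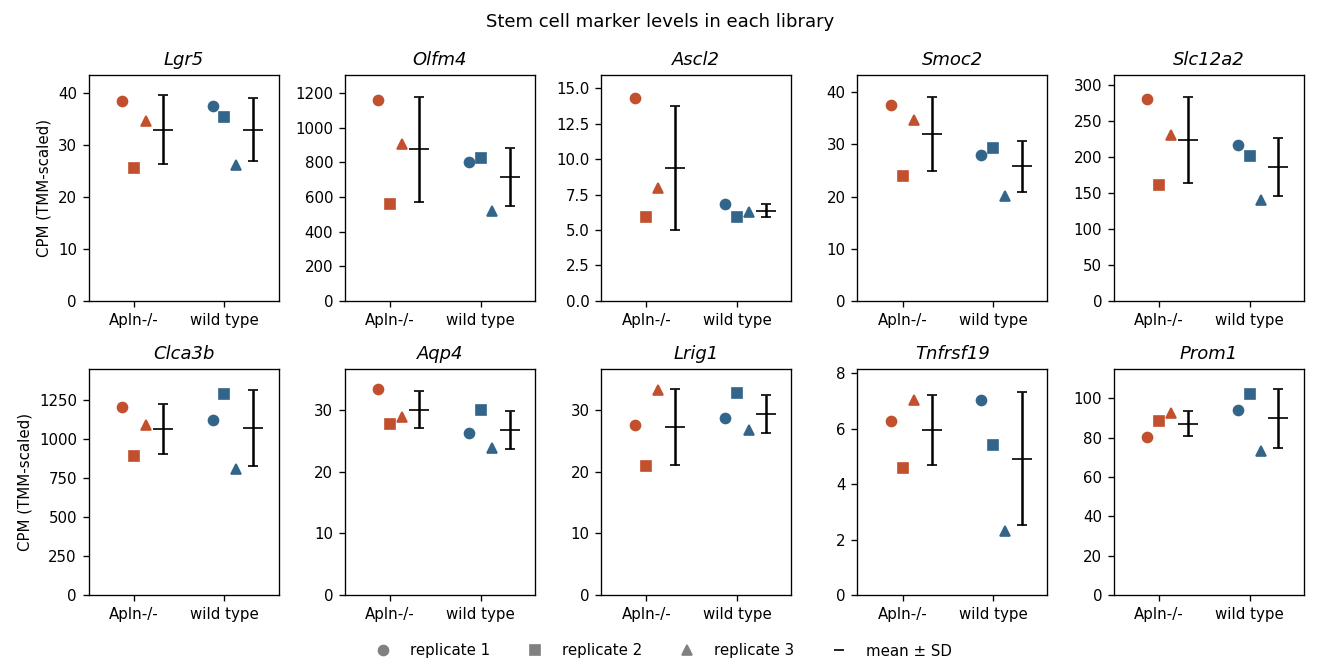
Levels of the 10 stem cell markers in TMM-scaled CPM, 1 panel per gene with its own axis from 0, with Apln-/- libraries left (orange) and wild-type libraries right (blue). Points are single libraries, and bars give the mean ± SD (n = 3 each); the groups overlap in all 10 panels, and Apln-/- library 2 and wild-type library 3 are the low points of their groups in most.

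The libraries held 23046880 to 26513481 counts in all. The 5 most abundant entries, both mitochondrial ribosomal RNAs among them, took 78.0 ± 0.822% of them in Apln-/- and 72.4 ± 2.49% in wild type (SD, n = 3 each), which left 5144725 to 5623112 and 6037237 to 7616648 counts for all other genes. Apln had 0, 0 and 0 counts in Apln-/- libraries 1, 2 and 3, against 29, 7 and 5 in wild-type libraries 1, 2 and 3. It lay below the filter on low counts. Of the genes for the sorted surface proteins, Epcam (adjusted p = 0.861) and Cd44 (adjusted p = 0.785) missed the edgeR threshold. Of 6 endothelial markers, 5 lay below the filter, and their sum was 0.784 to 2.08 CPM in Apln-/- and 0.536 to 2.66 CPM in wild-type libraries. All 7 blood-derived markers passed the filter. Their sum was 433 to 627 CPM in Apln-/- and 598 to 866 CPM in wild-type libraries. Most of it was Cd74, which alone had 419 to 608 CPM in Apln-/- and 577 to 852 CPM in wild-type libraries. Ptprc, encoding CD45, had 1.27, 1.80 and 1.18 CPM in Apln-/- libraries, against 2.82, 3.31 and 2.18 in wild-type libraries (edgeR adjusted p = 0.264). Mesenchymal markers summed to 9.14 to 25.6 CPM in Apln-/- and 1.07 to 30.2 CPM in wild-type libraries. Transcript length moved with the genotype: the log2 fold change had a median of 0.26 over the shortest eighth of all genes tested and of -0.19 over the longest. Ascl2 lay in the second shortest eighth and Slc12a2 in the longest, the other 8 markers in the fifth to seventh. With a correction for length and GC content, 0 of 10 markers passed as well.

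Promoter sequences are shown for 4 markers, 2 of them textbook targets of Wnt signalling (Ascl2 and Tnfrsf19), 1 of Notch signalling (Olfm4), and the most abundant marker, Clca3b. They come from RefSeq (build GRCm38.p6), which had 8 windows of 250 bases upstream of a start site for 6 of the 10 markers; Lgr5, Smoc2, Slc12a2 and Aqp4 had none in the table used. Each is written 5′ to 3′ on the gene's own strand, without bases that lie in annotated exons. Ascl2 is at chr7:142969265-142969514 (minus strand), Olfm4 at chr14:80000052-80000250 (plus), Clca3b at chr3:144849358-144849552 (minus), and Tnfrsf19, for the inner of its 2 start sites, at chr14:61038108-61038237 (minus). Capitals mark the reverse complement of CTTTGA, the core bound by the Wnt effectors TCF and LEF.
Ascl2: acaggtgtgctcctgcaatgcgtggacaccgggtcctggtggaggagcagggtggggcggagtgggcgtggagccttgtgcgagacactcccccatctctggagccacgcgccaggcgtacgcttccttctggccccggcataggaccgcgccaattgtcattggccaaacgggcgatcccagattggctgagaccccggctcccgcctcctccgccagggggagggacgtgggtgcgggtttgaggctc
Olfm4: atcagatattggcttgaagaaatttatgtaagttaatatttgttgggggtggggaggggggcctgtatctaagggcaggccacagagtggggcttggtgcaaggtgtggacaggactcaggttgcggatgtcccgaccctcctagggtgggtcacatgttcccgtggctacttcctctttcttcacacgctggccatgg
Clca3b: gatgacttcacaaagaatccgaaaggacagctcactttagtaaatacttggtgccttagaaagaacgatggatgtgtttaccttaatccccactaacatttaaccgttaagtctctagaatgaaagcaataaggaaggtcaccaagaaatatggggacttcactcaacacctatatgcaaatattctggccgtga
Tnfrsf19: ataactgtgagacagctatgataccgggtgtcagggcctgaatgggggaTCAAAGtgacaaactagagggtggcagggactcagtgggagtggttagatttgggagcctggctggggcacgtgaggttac
Searched on both strands of the full windows, CTTTGA was found in 1 of the 8, that of Tnfrsf19, at 201 to 196 bases before the start, against 13.8% of 32851 promoter windows of that length. The motif TGGGAA, core of the site of the Notch effector RBPJ, was found in 2 of the 8, against 21.6% of all windows. For Olfm4 it lay on the gene's own strand, 12 to 7 bases before the start. For Prom1 it lay on the strand opposite the gene, 116 to 111 bases before the start. Both were outside the stretches printed. These matches describe the letters in these windows and no binding.

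Lgr5 (ENSMUSG00000020140, chr10:115450311-115587780, minus strand, mm10) encodes the R-spondin receptor that defines these stem cells. Its level was 38.6, 25.7 and 34.7 CPM in Apln-/- libraries 1, 2 and 3, against 37.5, 35.5 and 26.1 CPM in wild-type libraries 1, 2 and 3. Each group held 1 low library, and the highest and the lowest of the 6 were both Apln-/-. The log2 fold change was -0.00076 ± 0.19 (SE), with a 95% interval from -0.42 to 0.42 (edgeR adjusted p = 0.999). Raw counts were 823, 556 and 735 in Apln-/- libraries and 944, 1031 and 828 in wild-type libraries, so counting error was small beside the spread between samples. Read as a fold, the interval for Lgr5 ran from 0.749 to 1.33.

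Ascl2 (ENSMUSG00000009248, chr7:142966829-142969264, minus strand) encodes the transcription factor that, in mice, fixes stem cell identity downstream of Wnt. It had 14.3, 5.91 and 7.94 CPM in Apln-/- libraries, against 6.86, 5.92 and 6.31 CPM in wild-type libraries. Apln-/- library 1 stood above all others, while Apln-/- library 2 was the lowest of the 6, just under wild-type library 2. Ascl2 had the largest log2 fold change of the 10 markers, 0.56 ± 0.30 (SE; 95% interval -0.08 to 1.20), and the lowest p (edgeR unadjusted p = 0.0819, adjusted p = 0.402). Of all genes tested, 20.3% had a lower p than Ascl2. Without Apln-/- library 1, the log2 fold change of Ascl2 was 0.12.

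Tnfrsf19 (ENSMUSG00000060548, chr14:60963875-61046490, minus strand), also called Troy, encodes a receptor of the TNF receptor family that damps Wnt signalling in these cells. It was the scarcest marker, with 6.28, 4.57 and 7.04 CPM in Apln-/- libraries, against 7.02, 5.41 and 2.30 CPM in wild-type libraries. Wild-type library 3 was far below the rest, with 73 counts against 157 or more in the other wild-type libraries. The log2 fold change was 0.28 ± 0.36 (SE; 95% interval -0.50 to 1.07; edgeR adjusted p = 0.760), and without wild-type library 3 it was -0.05.

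Olfm4 (ENSMUSG00000022026, chr14:79984081-80023139, plus strand) encodes olfactomedin 4, a secreted glycoprotein abundant in crypt base columnar cells and lowered when Notch is blocked. It had 1161, 560 and 904 CPM in Apln-/- libraries, against 801, 825 and 521 CPM in wild-type libraries. The upper pair of Apln-/- libraries lay above every wild-type library, and Apln-/- library 2 lay near the lowest wild-type one. The means were 875 ± 301 CPM in Apln-/- and 716 ± 169 CPM in wild type (SD, n = 3 each), a log2 fold change of 0.29 ± 0.25 (SE; edgeR adjusted p = 0.632). The difference was smaller than the SD of the Apln-/- libraries. Of 50-base windows of its transcript, 3.82% also occur in the overlapping noncoding gene Gm6999, so a small share of its reads could have been left unassigned.

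Smoc2 (ENSMUSG00000023886, chr17:14279506-14404790, plus strand) encodes a secreted calcium-binding matrix protein found in crypt base columnar cells. It had 37.5, 23.9 and 34.7 CPM in Apln-/- libraries, against 27.9, 29.3 and 20.2 CPM in wild-type libraries. As with Olfm4, all but the second Apln-/- library lay above all wild-type libraries, and the second lay between them. The log2 fold change was 0.31 ± 0.20 (SE; 95% interval -0.13 to 0.75; edgeR adjusted p = 0.506).

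Lrig1 (ENSMUSG00000030029, chr6:94604529-94700158, minus strand) encodes a membrane protein that restrains ErbB receptors and marks stem cells with a wider reach than Lgr5. It had 27.5, 20.9 and 33.2 CPM in Apln-/- libraries, against 28.7, 32.7 and 26.7 CPM in wild-type libraries. The Apln-/- libraries spanned the whole wild-type range and went past it on both sides. An exon of the protein-coding gene Slc25a26 overlaps Lrig1 on the opposite strand, and without a stated strand setting reads from the overlap cannot be told apart. Lrig1 had the lowest log2 fold change of the markers, -0.11 ± 0.18 (SE; 95% interval -0.51 to 0.29; edgeR adjusted p = 0.827).

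Prom1 (ENSMUSG00000029086, chr5:43993620-44102032, minus strand) encodes prominin 1, or CD133, a protein of membrane protrusions that is found on stem cells and on the progenitors above them. It had 80.1, 88.6 and 92.7 CPM in Apln-/- libraries, against 94.2, 102 and 73.0 CPM in wild-type libraries. All Apln-/- libraries lay within the wild-type range, and Prom1 was the single marker for which Apln-/- library 2 was not the lowest of its group. The log2 fold change was -0.04 ± 0.16 (SE; edgeR adjusted p = 0.932). An antisense gene, Gm16401, overlaps an exon of Prom1, and without a stated strand setting its reads cannot be told apart from those of Prom1.

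Among the transporters and channels, Slc12a2 (ENSMUSG00000024597, chromosome 18) encodes NKCC1, which brings sodium, potassium and chloride into the cell at its base. It had 280, 161 and 231 CPM in Apln-/- libraries, against 217, 202 and 141 CPM in wild-type libraries. Apln-/- libraries 1 and 3 lay above all wild-type libraries, and the log2 fold change was 0.26 ± 0.22 (SE; 95% interval -0.21 to 0.74; edgeR adjusted p = 0.612). Aqp4 (ENSMUSG00000024411, chromosome 18) encodes a water channel. It had 33.4, 27.7 and 28.8 CPM in Apln-/- libraries, against 26.3, 30.0 and 23.8 CPM in wild-type libraries. Aqp4 was the single marker with all Apln-/- libraries above the wild-type mean of 26.7 CPM, though wild-type library 2 was higher than Apln-/- libraries 2 and 3. Its log2 fold change was 0.17 ± 0.16 (SE; edgeR adjusted p = 0.662).

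Clca3b (ENSMUSG00000037033, chr3:144822623-144849357, minus strand), whose RefSeq synonym is Clca4, belongs to a family of secreted, calcium-activated chloride channel regulators. It had 1205, 888 and 1091 CPM in Apln-/- libraries, against 1118, 1287 and 804 CPM in wild-type libraries. The Apln-/- libraries lay inside the wild-type range, and the log2 fold change was -0.01 ± 0.19 (SE; 95% interval -0.43 to 0.41; edgeR adjusted p = 0.986). Clca3b was the most abundant marker and ranked 18 among all genes tested by mean CPM, with Olfm4 at 23. Of 50-base windows of its transcript, 5.98% also occur in Clca3a1 or Clca3a2. How far this affected its counts was not measured.

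**Figure D2:**
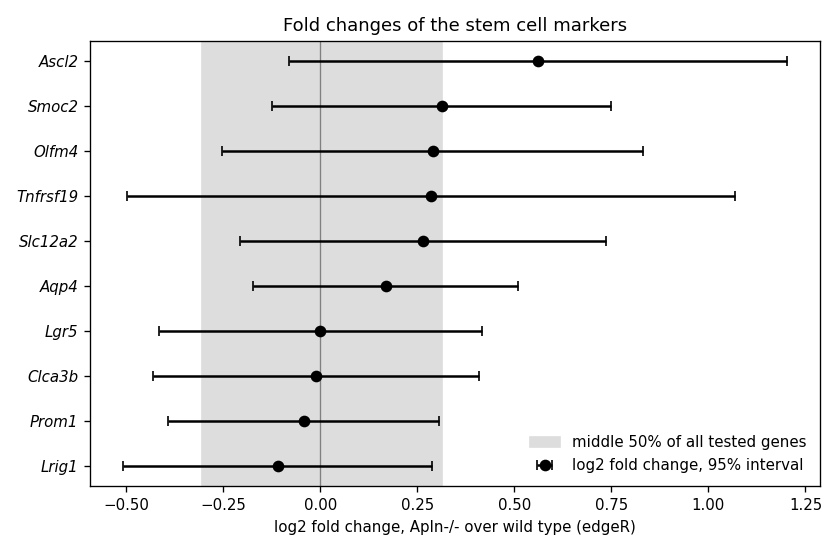
Log2 fold change, Apln-/- over wild type, of each stem cell marker (points) with its 95% interval from edgeR (bars, n = 3 each); the grey band holds the middle 50% of all tested genes. All 10 intervals include 0, and that of Ascl2, with a log2 fold change of 0.56, comes nearest to leaving it out.

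Per kilobase of transcript, the scale on which levels of different genes can be compared, a pair of markers stood far above the other 8. Clca3b was at 316 ± 47.9 CPM per kilobase in Apln-/- and 318 ± 72.9 in wild type, and Olfm4 at 312 ± 108 in Apln-/- and 256 ± 60.2 in wild type (SD, n = 3 each). Slc12a2 followed at 34.4 ± 9.22 in Apln-/- and 28.6 ± 6.19 in wild type, then Prom1, Smoc2, Lgr5, Lrig1, Aqp4, Ascl2 and Tnfrsf19 in the order of wild-type means. Lgr5 was at 7.0 ± 1.41 CPM per kilobase in Apln-/- and 7.01 ± 1.29 in wild type. Tnfrsf19 was at 1.47 ± 0.313 in Apln-/- and 1.21 ± 0.592 in wild type. This order between neighbours was kept in 3 of 3 libraries of both genotypes, except for 3 pairs. Clca3b was above Olfm4 in 2 of 3 Apln-/- and 3 of 3 wild-type libraries, Lrig1 above Aqp4 in 1 of 3 Apln-/- and 3 of 3 wild-type libraries, and Aqp4 above Ascl2 in 2 of 3 Apln-/- and 3 of 3 wild-type libraries. Those 3 pairs thus kept their order in all wild-type but not in all Apln-/- libraries, and differences between genes were not tested. Clca3b and Olfm4 made up most of the summed marker CPM: Clca3b held 45.1 ± 3.75% in Apln-/- and 48.8 ± 1.53% in wild type, and Olfm4 36.0 ± 4.65% in Apln-/- and 32.6 ± 1.12% in wild type (SD, n = 3 each).

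Within each genotype, 1 library was low for nearly all markers at once. Apln-/- library 2 had the lowest value of its group for 9 of 10 markers, and wild-type library 3 the lowest of its group for 9 of 10. Wild-type library 3 was the lowest of all 6 for 7 markers and Apln-/- library 2 for the other 3. The summed CPM of the 10 markers was 2884, 1806 and 2465 in Apln-/- libraries, against 2365, 2555 and 1644 in wild-type libraries, with means of 2385 ± 544 CPM in Apln-/- and 2188 ± 480 CPM in wild type (SD, n = 3 each). The difference between these means was smaller than either SD. With the dominant Clca3b and Olfm4 left out, the sum was 518, 358 and 470 CPM in Apln-/- libraries, against 445, 443 and 319 CPM in wild-type libraries, with the same low libraries. Counts of 9 and 9 markers at the low end were also found with DESeq2 size factors, upper-quartile scaling, and TMM without the 5 most abundant entries. The libraries are named by the replicate numbers in the sample titles, which were not taken to pair the genotypes; in the count table, Apln-/- libraries 1, 2 and 3 are the columns KO1, KO3 and KO4.

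**Figure D3:**
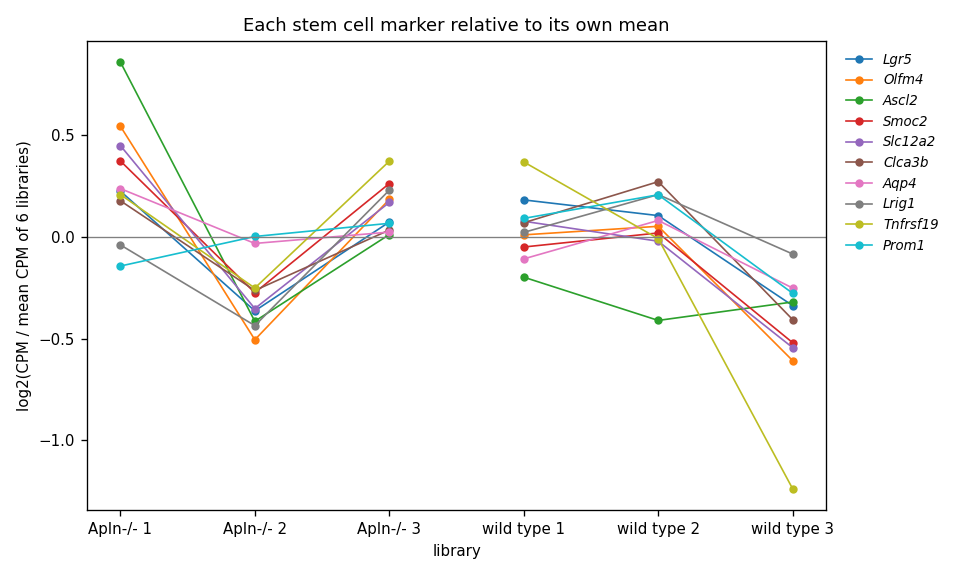
Log2 of each marker's CPM over its mean CPM in all 6 libraries, with Apln-/- libraries 1 to 3 left and wild-type libraries 1 to 3 right; lines only join values of the same gene within a genotype, and libraries of a genotype have no order. Apln-/- library 2 and wild-type library 3 are low for 9 of 10 markers within their groups, and Tnfrsf19 in wild-type library 3 is the lowest point.

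Markers of other crypt cells also differed between these libraries, and their part in the marker levels was not tested. The 8 enterocyte markers summed to 680, 945 and 616 CPM in Apln-/- libraries, against 690, 759 and 839 CPM in wild-type libraries. Within each genotype, this sum was highest in the library where most stem cell markers were lowest. Single enterocyte genes did not all follow the sum. In wild type, only Vil1 and Sis were highest in library 3, and in Apln-/-, Apoa4, Fabp1 and Fabp2 were highest in library 1. The 7 goblet markers summed to 2264, 2251 and 2411 CPM in Apln-/- libraries, against 2411, 1508 and 4956 CPM in wild-type libraries, with Muc2, the main intestinal mucin, at 1899 CPM in wild-type library 3. The 10 Paneth markers summed to 2564, 1084 and 1646 CPM in Apln-/- libraries, against 1017, 658 and 1018 CPM in wild-type libraries. This sum was higher in every Apln-/- library than in any wild-type one, and Apln-/- library 2 was again the lowest of its group. The median log2 fold change of the Paneth list was 0.91, with 3 of 10 genes higher without overlap, where 11.3% of all genes were. Of the Paneth markers, 0 passed edgeR's adjusted threshold, and 5 were higher in Apln-/- at an unadjusted p under 0.05 (7.53% of all genes were). DESeq2 called 1 Paneth marker, where it called 5.73% of the genes to which it gave an adjusted p. No gene of these 3 lists was at 0 in any library. The 7 tuft cell markers summed to 42.9, 32 and 64.3 CPM in Apln-/- libraries, against 82.4, 88.6 and 114 CPM in wild-type libraries, and the 7 enteroendocrine markers to 399.8, 551 and 518 CPM in Apln-/- libraries, against 952, 872 and 705 CPM in wild-type libraries. Both sums were lower in every Apln-/- library than in any wild-type one. The median log2 fold change was -1.01 for the tuft list, with 6 of 7 genes lower without overlap, and -0.64 for the enteroendocrine list, with 4 of 7 lower without overlap, where 9.56% of all genes were. EdgeR called 0 genes of either list at the adjusted threshold, which 0.172% of all genes passed. At an unadjusted p under 0.05, 6 tuft and 4 enteroendocrine genes were lower, as were 7.66% of all genes tested. DESeq2 called 5 tuft and 2 enteroendocrine genes, all lower, against 5.73% in either direction of the genes to which it gave an adjusted p.

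Leaving out the low libraries changed no call of a marker. Each is singled out here for its low marker values, so leaving it out raises its group's means for most markers. The signs and unadjusted p-values below therefore carry no test of a difference. Without Apln-/- library 2, edgeR's adjusted threshold was passed by 0 of 10 markers, 9 of 10 log2 fold changes were positive with a median of 0.34, and 4 of 10 had an unadjusted p under 0.05, as did 1781 of 16040 genes. Without wild-type library 3, 0 of 10 passed, 5 were positive and the median was 0.02. With both left out, an alternative chosen after seeing the data, 0 of 10 passed, 7 were positive, and the median was 0.13 (lowest adjusted p = 0.238, for Ascl2).

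Ratios between markers do not depend on how the libraries are scaled, and were examined after the levels had been seen. Smoc2 had 0.971, 0.932 and 0.999 counts per count of Lgr5 in Apln-/- libraries, against 0.746, 0.825 and 0.772 in wild-type libraries. Slc12a2 had 7.27, 6.27 and 6.65 counts per count of Lgr5 in Apln-/- libraries, against 5.78, 5.70 and 5.39 in wild-type libraries. For these 2 of the 9 other markers the genotypes did not overlap and the Apln-/- libraries were higher; of all tested genes, 5.71% were so. A two-sided exact permutation test gave p = 0.1 for each, the smallest that 3 against 3 allows, before any adjustment for the 9 ratios. Slc12a2 and Smoc2 followed Lgr5 over the 6 libraries (Pearson's r of log2 CPM 0.916 and 0.845), while the median gene ranked did not (-0.06). Ratios to Lgr5 of most genes therefore carry more of its spread, and the share of 5.71% cannot show an excess among the markers. The other 7 ratios overlapped: Olfm4, for one, had 30.1, 21.8 and 26.0 counts per count of Lgr5 in Apln-/- libraries, against 21.4, 23.2 and 20.0 in wild-type libraries. Clca3b had 32.4 ± 1.90 counts per count of Lgr5 in Apln-/- and 32.3 ± 3.45 in wild type (SD, n = 3 each).

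**Figure D4:**
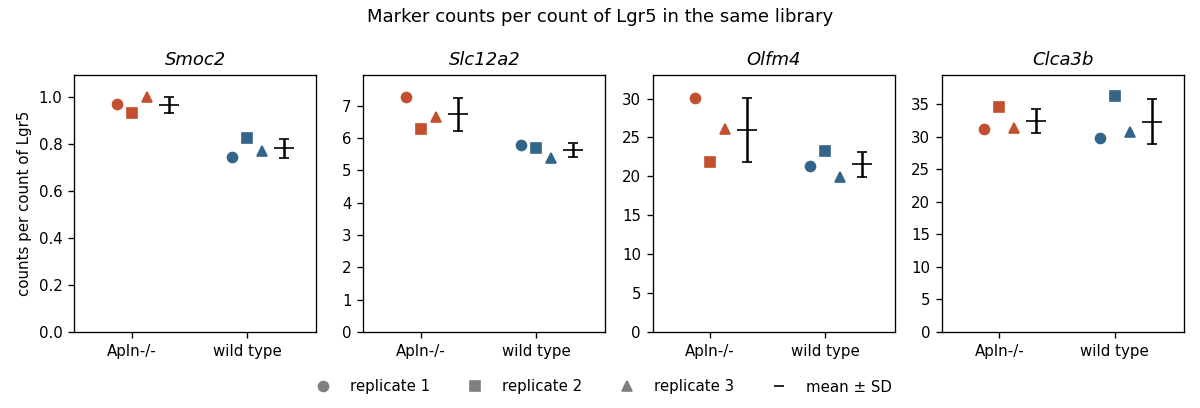
Raw counts of Smoc2, Slc12a2, Olfm4 and Clca3b per raw count of Lgr5 in the same library, with Apln-/- left and wild type right; points are libraries and bars the mean ± SD (n = 3 each), on axes that start at 0. The genotypes are apart for Smoc2 and Slc12a2 and overlap for Olfm4 and Clca3b.

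Genes whose levels over the 6 libraries were most like those of Lgr5 were ranked by Pearson's r of log2 CPM among 4958 genes with a mean of at least 10 CPM. Since they were chosen by r over 6 libraries that share their scaling and cell mixture, r is a description and carries no test. The 5 of highest r were Pdcd4 (0.987), Arl5b (0.986), Slc27a2 (0.984), Ripk3 (0.974) and Thra (0.972). Pdcd4 had 60.4, 43.0 and 55.8 CPM in Apln-/- libraries, against 63.8, 57.2 and 43.5 CPM in wild-type libraries, low in the same libraries as Lgr5. Among the markers, Olfm4 ranked 16 (r = 0.925), Slc12a2 24, Clca3b 25 and Smoc2 93, while Lrig1, Aqp4 and Prom1 ranked 267, 344 and 729. Ascl2 and Tnfrsf19 were below 10 CPM and were not ranked.

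Further genes of the crypt base were read from lists, and none of them passed edgeR's adjusted threshold. Of 22 tested genes of 23 in a list of other crypt base columnar cell genes, 14 were positive and 8 negative, with a median log2 fold change of 0.06. Its 4 genes of lowest p were Slco3a1 (adjusted p = 0.317), Phlda1 (0.382), Arglu1 (0.404) and Ets2 (0.432), all by edgeR. Arglu1 had 12.7, 12.8 and 13.7 CPM in Apln-/- libraries, against 15.1, 14.0 and 21.7 CPM in wild-type libraries, lower without overlap. Ets2 encodes a transcription factor and had 89.3, 67.7 and 78.8 CPM in Apln-/- libraries, against 61.6, 67.1 and 67.1 CPM in wild-type libraries, higher without overlap. One gene of this list had an unadjusted p under 0.05, lower in Apln-/-, where 7.66% of all genes were.

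Of 20 tested Wnt receptors and targets, 6 were positive and 14 negative, with a median log2 fold change of -0.14. At an unadjusted p under 0.05, 1 was higher and 4 were lower in Apln-/-, where 7.53% of all genes tested were higher and 7.66% lower. Nkd1, a feedback inhibitor of Wnt signalling, was scarce, with 0.0938, 0.277 and 0.284 CPM in Apln-/- libraries, against 0.952, 0.792 and 0.725 CPM in wild-type libraries (edgeR adjusted p = 0.230). Ephb2, a receptor that positions cells along the crypt, had 29.0, 31.0 and 30.2 CPM in Apln-/- libraries, against 39.6, 41.9 and 35.9 CPM in wild-type libraries, all lower without overlap (log2 fold change -0.38 ± 0.14 (SE), edgeR adjusted p = 0.240). Sp5, a Wnt target, had 2.58, 1.48 and 2.03 CPM in Apln-/- libraries, against 0.317, 0.448 and 1.51 CPM in wild-type libraries, and the groups overlapped by 1 library on each side (edgeR adjusted p = 0.296). Lrp5, a Wnt coreceptor, had 21, 22.9 and 22.2 CPM in Apln-/- libraries, against 27.2, 29.1 and 26.9 CPM in wild-type libraries, again with no overlap (edgeR adjusted p = 0.310).

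Of 9 tested Notch pathway genes, 3 were positive and 6 negative, with a median log2 fold change of -0.15, and 3 had an unadjusted p under 0.05, all lower in Apln-/-, as were 7.66% of all genes tested. Atoh1, which drives secretory fates and is held down by Notch, had 5.30, 4.75 and 5.95 CPM in Apln-/- libraries, against 12, 7.82 and 8.45 CPM in wild-type libraries. All Apln-/- values were below all wild-type values; the adjusted p was 0.142 with edgeR and 0.0437 with DESeq2, so the call depends on the tool. Dll1, a Notch ligand, had 6.00, 5.21 and 6.47 CPM in Apln-/- libraries, against 10.9, 9.71 and 7.41 CPM in wild-type libraries (edgeR adjusted p = 0.206). Notch2, a receptor, was lower without overlap (edgeR adjusted p = 0.212), and Hes1, the effector that represses Atoh1, was higher without overlap (27.4, 19.2 and 21.5 CPM in Apln-/- libraries, against 18.3, 17.5 and 16.7 CPM in wild-type libraries; edgeR adjusted p = 0.339).

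Of 4 genes listed as reserve stem cell genes, Hopx had 36.1, 26.0 and 33.0 CPM in Apln-/- libraries, against 25, 20.0 and 22.9 CPM in wild-type libraries. Every Apln-/- library lay above every wild-type library, with a log2 fold change of 0.49 ± 0.17 (SE; edgeR adjusted p = 0.210). Bmi1, Clu and Tert overlapped between genotypes (edgeR adjusted p = 0.767, 0.888 and 0.936), and Clu and Tert were scarce in all 6 libraries. Of 12 tested genes of the markers' own families, the 4 of lowest p were Olfm1 (edgeR adjusted p = 0.228), Clca1 (0.350), Slc12a7 (0.387) and Clca3a2 (0.481), and all 4 overlapped. Clca1, a goblet cell relative of Clca3b, had 265, 297 and 238 CPM in Apln-/- libraries, against 354, 196 and 825 CPM in wild-type libraries, high in the wild-type library with the most Muc2.

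Of 12 genes of dividing cells, 9 were positive and 3 negative, with a median log2 fold change of 0.08. Mki67, the gene of the Ki-67 protein of dividing cells, had 168, 234 and 202 CPM in Apln-/- libraries, against 312, 404 and 348 CPM in wild-type libraries. It was lower in every Apln-/- library, with a log2 fold change of -0.82 ± 0.17 (SE), and its adjusted p was 0.0628 with edgeR and 0.000106 with DESeq2. Cdk1 (0.400), Birc5 (0.581) and Pcna (0.612) had log2 fold changes of 0.34, 0.25 and 0.19, opposite in sign to that of Mki67, and did not pass edgeR's test at these adjusted p-values. Cdk1 had 16.4, 15.5 and 17.3 CPM in Apln-/- libraries, against 11.6, 12.4 and 14.9 CPM in wild-type libraries, higher without overlap. In each direction 1 of the 12 genes did not overlap, where 11.3% of all genes were higher and 9.56% lower without overlap. Within the libraries, Mki67 was highest in Apln-/- library 2 and wild-type library 2, so it did not follow the low libraries of the stem cell markers in both genotypes.

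**Figure D5:**
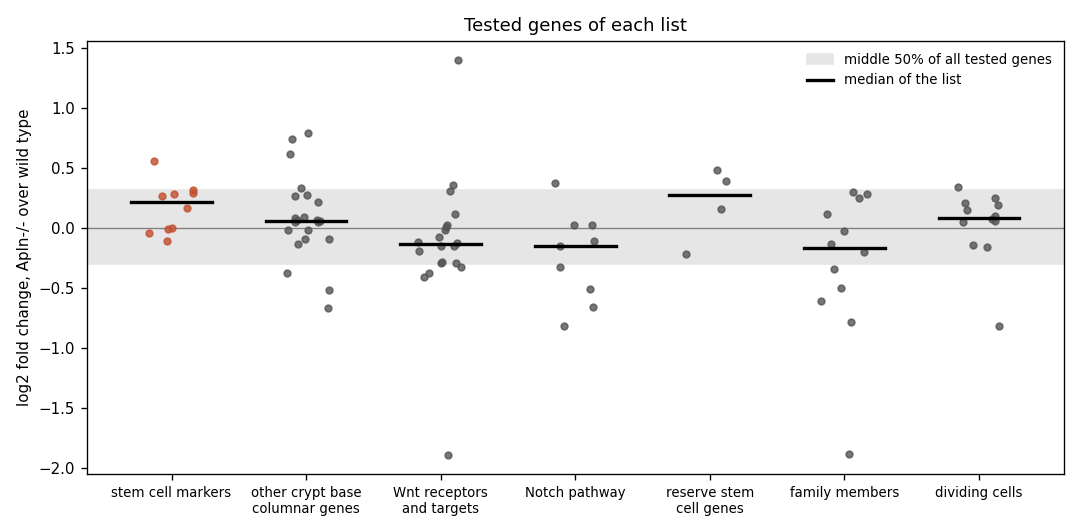
Log2 fold change, Apln-/- over wild type, of each tested gene (points) of the 10 stem cell markers and of 6 further lists, with the list median as a bar and the middle 50% of all tested genes in grey. The medians lie between -0.17 (family members) and 0.28 (reserve stem cell genes), with 0.22 for the stem cell markers.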

How the data were processed

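Per the labels' protocols, RNA was isolated on RNeasy Plus Micro columns, amplified by Ovation Pico WTA V2 and made into libraries with Nextera DNA Flex. The submitters' processing notes name STAR 2.6.1, HTSeq and mm10, with no annotation release or strand setting. The authors deposited raw read counts per gene, not normalized. Symbols, lengths and coordinates came from GENCODE of that build (28551 of 28564 identifiers matched), with the longest protein-coding transcript, or else the longest, as a gene's length.

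In R 4.3.3, edgeR 4.0.16 kept 15122 genes (filterByExpr, count minimum 10, total minimum 15), scaled libraries by TMM, and compared genotypes by glmQLFit and glmQLFTest without covariates; p-values were adjusted by Benjamini-Hochberg over all genes, with a threshold of 0.05. Log2 CPM used a prior count of 2. Alternatives were DESeq2 1.42.0, limma 3.58.1 (voom), other scalings and filters, a length and GC correction, a replicate block and each library left out. The test was first tried on simulated counts. Libraries of a group differed by more than sampling noise, so each counted as a sample; the labels call them biological replicates. Members and lists were chosen with earlier results of these data known. Named are all markers, up to 4 genes of lowest p in each list of stem cell, Wnt, Notch, reserve, family and dividing cell genes, and the 5 genes most like Lgr5. Of 158 list entries outside the markers, 154 matched the table. The labels name no molecular identifiers, so counts cannot be read as separate molecules.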

Additional observations from a re-analysis of the deposited data

How the results depend on the processing

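Across 16 alternatives, 0 of 10 markers passed the adjusted threshold in any, while the number of genes called, 26 by edgeR as reported, was 1 with DESeq2 size factors, upper-quartile scaling, the 5 most abundant entries left out, or a length and GC correction. It was 581 with the DESeq2 Wald test, 56 with limma-voom, 629 with no filter, 117 with a filter of 1 CPM in 3 libraries, 0 to 358 when each library was left out in turn (358 without wild-type library 3), and 164 without both low libraries. Of 160 marker log2 fold changes under these alternatives, 139 kept their sign, and 21, none of them called, changed it. Lgr5 was 0.0194 with upper-quartile scaling, 0.0013 with voom, 0.00026 with no filter, 0.0050 with the CPM filter, 0.0800 with the length and GC correction, and 0.0120 without both low libraries. Clca3b was 0.0103 with upper-quartile scaling, 0.0046 with voom, 0.0025 with the length and GC correction and 0.0056 with the replicate block, and Lrig1 was 0.0382 with the length and GC correction. With each library left out, Lgr5 ranged from -0.14 to 0.16, Clca3b from -0.18 to 0.14, Lrig1 from -0.27 to 0.0517, Tnfrsf19 from -0.0539 to 0.62 and Prom1 from -0.17 to 0.0514; the cause was not tested. The number of markers at an unadjusted p under 0.05 was 4 without Apln-/- library 2, 1 with no filter and 1 without both low libraries, and 0 in the other alternatives. All 60 relative levels, recomputed with DESeq2 size factors only, moved by less than the replicate SD.

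The replicate numbers were not taken to pair the genotypes, since the labels state no pairing. Deviations of same-numbered libraries correlated at 0.0406, 0.0569 and 0.0109, and those of other pairs at -0.0518 to 0.0169. Apln-/- libraries 1 and 2 correlated most with their own number, and Apln-/- library 3 with wild-type library 1 (0.0169). Correlations this small cannot show whether samples were paired. With the replicate block, 173 genes and 0 markers were called. Precision is limited by 3 samples a group and, for Ascl2 and Tnfrsf19, by 73 to 305 counts per library.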
